A study of Mus musculus with 6 samples.

Results

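Cytotoxic T cells kill through granules, secretory lysosomes that carry perforin and granzymes and empty at the contact with a target cell. The group measured here holds genes of these granules and of their release: Nkg7, Srgn, Ctsw, Lamp1, Unc13d, Rab27a, Stx11, Serpinb9 and Serpinb6b, 9 of the 32227 genes in the files. They were chosen by symbol for what their products do in the granule, in its docking and fusion or in protecting the killer cell. Perforin and granzymes, the contents, were kept as a separate list.

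The data are single-cell RNA counts from mouse CD8 T cells in 6 libraries, 1 for each label in thymus, spleen and tumor. Pdcd1 encodes PD-1, an inhibitory receptor of activated T cells. The Pdcd1 cKO mice carried Pdcd1fl/fl with the E8I Cd8a-Cre, which acts once CD8 is expressed after positive selection, and Pdcd1fl/fl mice without Cre served for comparison. Mice were adults older than 8 weeks on the C57BL/6 background; each thymus or spleen library came from 1 mouse at baseline, and for each tumor library cells of 3 mice were combined, 12 days into growth of B16-OVA melanoma.

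The libraries labelled Pdcd1fl/fl and Pdcd1 cKO held 1067 and 2674 barcodes from thymus, 6929 and 4963 from spleen and 457 and 561 from tumor. Total UMIs were 6389966 and 19304377 in thymus, 5935926 and 8964626 in spleen and 9401747 and 7924590 in tumor. Median depth over all barcodes was 4361 and 5384 UMIs in thymus, 728 and 1611 in spleen and 13837 and 9510 in tumor. In the spleen library labelled Pdcd1fl/fl, 5267 barcodes had under 1000 UMIs. The spleen pair shared 2 barcodes, none of them among the cells analyzed, and no other pair shared any.

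After the authors' filter and a call of T cells by marker genes, 1063 and 2628 cells remained in thymus, 1453 and 4843 in spleen and 288 and 470 in tumor. Their median depth was 4366 and 5419 UMIs in thymus, 1321 and 1619 in spleen and 11034 and 9111 in tumor. A Cd8a or Cd8b1 UMI was present in 55.2% and 66.6% of them in thymus, 59.2% and 79.5% in spleen and 95.5% and 97.2% in tumor. A UMI of Dntt, the terminal transferase of immature thymocytes, was present in 69.2% and 55.3% of thymic cells and in under 1% elsewhere. Levels below are counts per 1000000 UMIs of these T cells (CPM), with 95% intervals that cover counting error only. Mouse, capture and label come together in each library, so the labels' part cannot be told apart from theirs.

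Pdcd1 (ENSMUSG00000026285, chr1 93966027-93980312 minus, GRCm39) was read first, since the labels concern it. It had 12 and 131 UMIs in thymus, 1 and 103 in spleen and 702 and 802 in tumor. The log2 ratio of the library labelled Pdcd1 cKO over that labelled Pdcd1fl/fl was 1.86 (1.01 to 2.85) in thymus, 4.69 (2.18 to 10.0) in spleen and -0.26 (-0.41 to -0.12) in tumor. Pdcd1 RNA was thus higher under the cKO label in thymus and spleen, against what the label names, and somewhat lower in tumor. These counts span the whole gene and do not show whether a floxed exon was lost. Every direction between labels rests on the labels as deposited.

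Nkg7 encodes a membrane protein of cytotoxic granules that regulates their release (ENSMUSG00000004612, chr7 43086497-43087678 plus, no overlapping gene). Its level was 250 (238 to 263) and 325 (317 to 333) CPM in thymus, 1285 (1238 to 1334) and 1828 (1799 to 1856) in spleen and 1560 (1520 to 1600) and 2633 (2589 to 2677) in tumor, with Pdcd1fl/fl first in each pair. At an equal depth of 1000 UMIs, 23.2% and 27.1% of cells held a Nkg7 UMI in thymus, 62.6% and 75.1% in spleen and 69.8% and 88.9% in tumor. At full depth these shares were 53.2% and 64.0%, 71.9% and 86.6%, and 96.5% and 100%. Nkg7 was lowest in thymus and highest in the tumor library labelled Pdcd1 cKO, and within each tissue it was higher under that label.

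The log2 ratio of Nkg7 between labels was 0.38 (0.30 to 0.46) in thymus, 0.51 (0.45 to 0.57) in spleen and 0.76 (0.71 to 0.80) in tumor. In thymus its sign depended on the cells counted: among cells with CD8 and no Dntt it was -0.13 (-0.25 to -0.01). In tumor it was 1.45 when all filtered barcodes, melanoma cells among them, were counted. Spleen exceeded thymus 5.14-fold under the fl/fl label and 5.62-fold under the cKO label, and tumor exceeded spleen 1.21-fold and 1.44-fold. Tissue came together with mouse, tumor growth, isolation and depth, which cannot be told apart.

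Srgn encodes serglycin, the proteoglycan that binds granzymes and perforin in the granule core (ENSMUSG00000020077, chr10 62329029-62363238 minus). It stood at 477 (461 to 495) and 588 (577 to 599) CPM in thymus, 1079 (1036 to 1123) and 1015 (994 to 1037) in spleen and 655 (630 to 681) and 675 (653 to 697) in tumor. Unlike Nkg7, it peaked in spleen and was lower in tumor. Its log2 ratio between labels was 0.30 (0.24 to 0.36) in thymus, -0.09 (-0.15 to -0.02) in spleen and 0.04 (-0.03 to 0.12) in tumor. Among thymic cells with CD8 and no Dntt it was -0.14 (-0.26 to -0.03), the sign of spleen. Spleen over thymus came to 1.18 and 0.79, and tumor over spleen to -0.72 and -0.59.

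Ctsw encodes cathepsin W, a cysteine protease largely confined to cytotoxic lymphocytes (ENSMUSG00000024910, chr19 5515071-5518535 minus, with Fibp overlapping on the other strand). It stood at 59.1 (53.2 to 65.4) and 88.5 (84.3 to 92.8) CPM in thymus, 206 (187 to 226) and 276 (265 to 287) in spleen and 177 (164 to 191) and 221 (209 to 234) in tumor. The log2 ratio between labels was 0.58 (0.42 to 0.75) in thymus, 0.42 (0.28 to 0.57) in spleen and 0.32 (0.18 to 0.46) in tumor. Ctsw thus exceeded its thymic level in spleen as Nkg7 did, 3.48-fold and 3.11-fold, and like Nkg7 was higher under the cKO label in the T cells of every tissue. As with Nkg7, the thymic sign depended on the cells counted, with -0.11 (-0.34 to 0.12) among cells with CD8 and no Dntt. Tumor over spleen came to log2 ratios of -0.21 and -0.32.

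**Figure D1:**
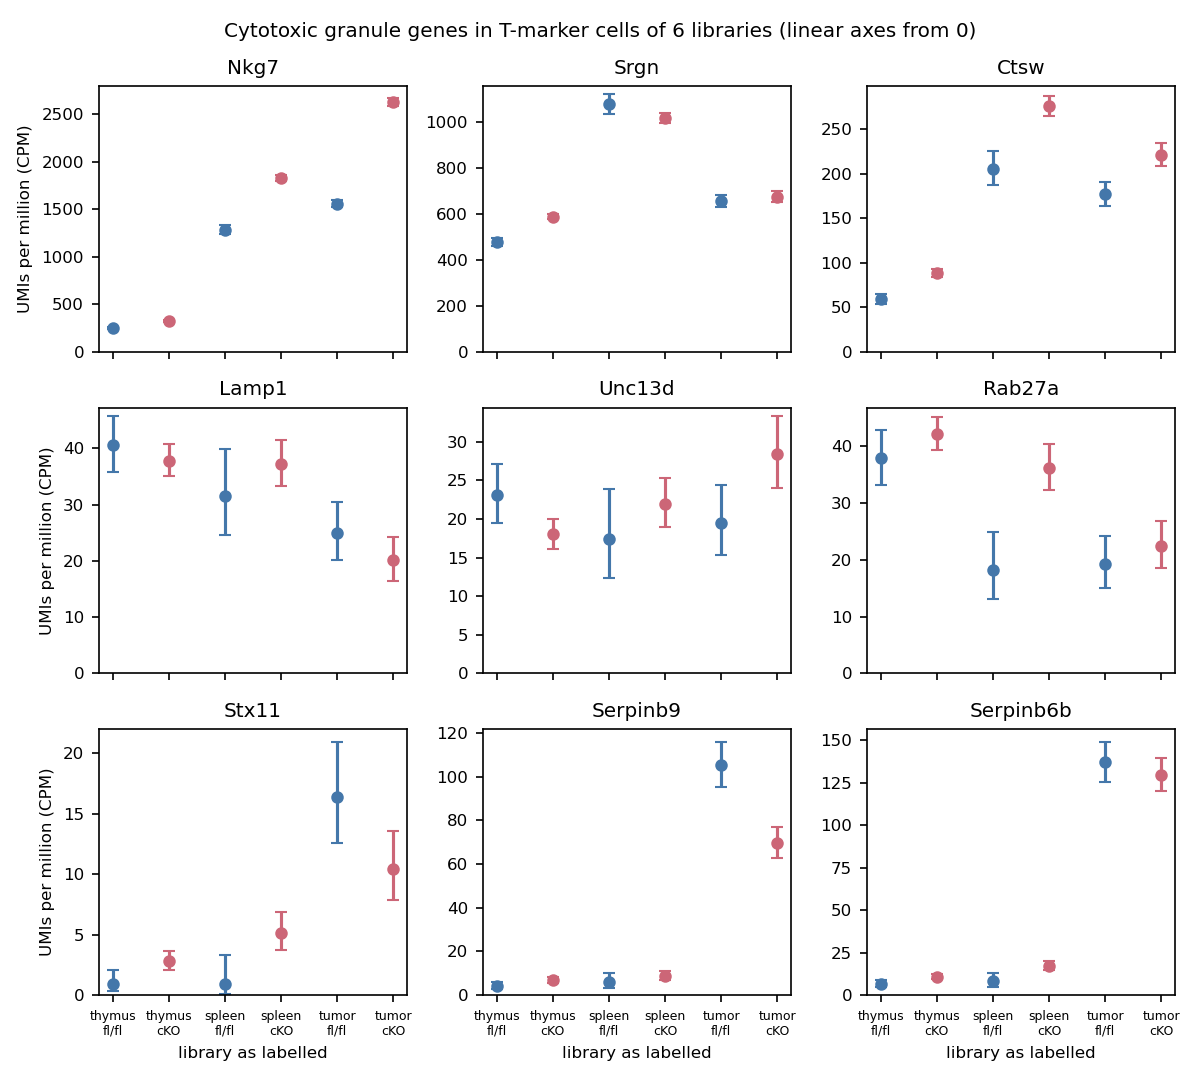
Level of each of the 9 genes in T cells of the 6 libraries, with 95% intervals for counting error. In the tumor library labelled Pdcd1 cKO, 66 of the 150 Unc13d UMIs came from 1 cell.

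Lamp1 encodes a lysosomal membrane protein that reaches the cell surface when granules fuse (ENSMUSG00000031447, chr8 13209121-13227360 plus, with Grtp1 on the other strand). It stood at 40.5 (35.7 to 45.8) and 37.8 (35.1 to 40.7) CPM in thymus, 31.5 (24.5 to 39.9) and 37.2 (33.2 to 41.5) in spleen and 25.0 (20.2 to 30.5) and 20.1 (16.4 to 24.3) in tumor. Lamp1 was lowest in tumor, where the log2 ratio to spleen was -0.34 (-0.80 to 0.13) under the fl/fl label and -0.89 (-1.22 to -0.57) under the cKO label, the latter near the -0.85 of the median gene. Between labels the ratios were -0.10 (-0.31 to 0.11), 0.24 (-0.14 to 0.63) and -0.31 (-0.73 to 0.10) for thymus, spleen and tumor, so each interval held 0.

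Rab27a encodes the GTPase that docks granules at the plasma membrane (ENSMUSG00000032202, chr9 72952124-73004911 plus). It stood at 37.9 (33.2 to 43.0) and 42.2 (39.3 to 45.2) CPM in thymus, 18.3 (13.1 to 24.9) and 36.3 (32.4 to 40.5) in spleen and 19.2 (15.1 to 24.2) and 22.4 (18.5 to 26.8) in tumor. Its label ratio was 0.99 (0.51 to 1.5) in spleen, resting on 40 UMIs in the Pdcd1fl/fl library, and 0.16 (-0.05 to 0.37) and 0.22 (-0.21 to 0.66) in thymus and tumor. Rab27a went against Nkg7 between thymus and spleen, with log2 ratios of spleen over thymus of -1.05 (-1.57 to -0.56) and -0.22. The median gene stood at -0.43 and -0.12, so the cKO value was near it.

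Unc13d encodes Munc13-4, which primes docked granules for fusion (ENSMUSG00000057948, chr11 115952915-115968805 minus). It stood at 23.1 (19.5 to 27.1) and 18.0 (16.2 to 20.01) CPM in thymus, 17.4 (12.3 to 23.8) and 22.0 (19.0 to 25.3) in spleen and 19.5 (15.3 to 24.4) and 28.4 (24.1 to 33.4) in tumor. The label ratio was -0.36 (-0.64 to -0.07) in thymus, 0.34 (-0.17 to 0.88) in spleen and 0.54 (0.13 to 0.96) in tumor. The tumor value hung on 1 cell of 58252 UMIs, which held 66 of the 150 Unc13d UMIs in the cKO library, while the next cell held 4. Without the richest cell of each library the tumor ratio was -0.21 (-0.69 to 0.26), and with each cell thinned to 1000 UMIs it was 1.29 (-1.03 to 4.57).

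Stx11 encodes syntaxin-11, a t-SNARE of granule fusion (ENSMUSG00000039232, chr10 12813953-12840259 minus, no overlapping gene). It was scarce, with 6 and 53 UMIs in thymus, 2 and 45 in spleen and 63 and 55 in tumor. These gave 0.943 and 2.77 CPM in thymus, 0.914 and 5.15 in spleen and 16.4 and 10.4 in tumor. The label ratio was 1.56 (0.34 to 3.07) in thymus, 2.49 (0.56 to 5.58) in spleen and -0.65 (-1.20 to -0.11) in tumor. With all deposited barcodes counted the ratios were 0.99 (0.12 to 1.94) in spleen and -0.28 (-0.73 to 0.17) in tumor. Tumor exceeded spleen by a log2 of 4.16 (2.25 to 7.24) under the fl/fl label, from only 2 splenic UMIs, and by 1.02 (0.42 to 1.62) under the cKO label.

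Serpinb9 encodes a serpin that inhibits granzyme B and so shields the killer cell (ENSMUSG00000045827, chr13 33187233-33201940 plus). It stood at 3.93 (2.54 to 5.80) and 6.80 (5.69 to 8.08) CPM in thymus, 5.94 (3.16 to 10.2) and 8.92 (7.05 to 11.1) in spleen and 105 (95.3 to 116) and 69.5 (62.6 to 77.0) in tumor. Tumor exceeded spleen 17.7-fold under the fl/fl label, a log2 of 4.15 (3.36 to 5.07), and 7.79-fold under the cKO label, 2.96 (2.61 to 3.33). The label ratio was 0.79 (0.17 to 1.47) in thymus, 0.59 (-0.27 to 1.56) in spleen and -0.60 (-0.81 to -0.39) in tumor. Among thymic cells with CD8 and no Dntt it was 0.15 (-0.83 to 1.28). In tumor Serpinb9 thus ran opposite to Nkg7 between labels, though with all filtered barcodes counted its ratio there was 0.15.

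Serpinb6b encodes another intracellular serpin of the same clade (ENSMUSG00000042842, chr13 33073279-33163050 plus, with Serpinb1c on the other strand). It stood at 6.28 (4.49 to 8.56) and 10.7 (9.26 to 12.2) CPM in thymus, 8.23 (4.88 to 13.0) and 17.3 (14.6 to 20.3) in spleen and 137 (126 to 149) and 129 (120 to 140) in tumor. Tumor exceeded spleen 16.6-fold and 7.49-fold, log2 ratios of 4.06 (3.38 to 4.82) and 2.91 (2.65 to 3.17). The label ratio was 0.76 (0.27 to 1.29) in thymus, 1.07 (0.36 to 1.86) in spleen and -0.08 (-0.25 to 0.08) in tumor. In thymus it was -0.11 (-0.99 to 0.87) among cells with CD8 and no Dntt and -0.043 (-1.16 to 1.19) with each cell thinned to 1000 UMIs. Both serpins thus differed far more between spleen and tumor than Nkg7 did.

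Serpinb6b and Serpinb9 lie 24182 bases apart on chr13, with no protein-coding gene between them. Of the other 5 clade B serpins listed, Serpinb6a, Serpinb9b and Serpinb1a were also higher in tumor than in spleen, Serpinb2 had no UMI in either tissue and Serpinb8 had 0 UMIs in spleen and 4 and 1 in tumor. Serpinb6a stood at 10.4 and 12.7 CPM in thymus, 13.3 and 19.7 in spleen and 73.3 and 60.5 in tumor. Serpinb9b had 1 UMI in each spleen library against 55 and 15 in tumor, log2 ratios of 4.97 (2.43 to 10.3) and 4.63, and between labels in tumor it was lower under cKO, at -2.33 (-3.26 to -1.49). The files do not state how reads that fit several of these related genes were assigned, nor which strand was counted where genes overlap, so their separate levels are less certain than that of Nkg7.

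The size of these shifts was set against all genes with at least 100 UMIs in the pair, by the share that moved at least 2-fold. Between labels in thymus 0 of 8 members were higher, against 3.76% of all genes, and 0 were lower, against 4%. In spleen 1 of 7, Serpinb6b, was higher against 5.06%, and 0 were lower against 0.697%. With 18 and 151 UMIs, Serpinb6b passed the filter only through the cKO library, where it was higher, so no conclusion is drawn from this count. In tumor 0 of 9 were higher against 4.01% and 0 lower against 1.84%. Nkg7 itself differed by less than 2-fold between labels in every tissue.

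Between tissues more members passed 2-fold. From thymus to spleen under the fl/fl label, 3 of 6 members (Nkg7, Srgn and Ctsw) were higher against 7.98% of all genes and 1, Rab27a, was lower against 28.6%. Under the cKO label 2 of 8 (Nkg7 and Ctsw) were higher against 9.59% and 0 lower against 14.9%. From spleen to tumor under the fl/fl label 2 of 8, both serpins, were higher against 16.5% and 0 lower against 37.5%. Serpinb9 had 13 and 405 UMIs and Serpinb6b 18 and 527, so both passed the filter only through tumor, where they were higher. Under the cKO label 3 of 9, both serpins and Stx11, were higher against 11.1% and 0 lower against 46.6%. The members past 2-fold lay on the higher side except for Rab27a, in comparisons where most of the genes past 2-fold were lower. For both fl/fl serpins and for Rab27a (241 and 40 UMIs) the filter tied passing to direction. The same held for Stx11 under the cKO label (45 and 55 UMIs), which passed only through tumor, where it was higher. No conclusion is drawn from the sides of these members.

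Scaling bears on these counts, since the median gene did not sit at 0. Over all genes with at least 100 UMIs the median log2 ratio between labels was -0.07 in thymus, 0.18 in spleen and 0.08 in tumor, against 0.34, 0.42 and 0.04 for the members. With mitochondrial, ribosomal protein and Malat1 UMIs left out of the totals, the median of all genes moved to 0.11, 0.04 and -0.04, and Nkg7 to 0.56, 0.37 and 0.63. For spleen over thymus the median of all genes was -0.43 and -0.12, and for tumor over spleen -0.37 and -0.85. Scaled by the median of ratios instead, higher genes made up 67.3% of the 2-fold calls between spleen labels in place of 87.9%, and Serpinb6b was then under 2-fold. The same change moved that share from 21.8% to 46.4% for fl/fl spleen over thymus, from 30.6% to 45.2% for fl/fl tumor over spleen and from 19.2% to 48.7% for cKO tumor over spleen. Rab27a was then short of 2-fold in the first of these, and in the last Nkg7 and Unc13d joined the members past it. That Unc13d call hung on 1 cell, without which its cKO tumor level was 16.1 CPM, against 22.0 in the cKO spleen.

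RNA of other cell types was present among the T cells at low level. The 10 T-cell markers summed to 7018 and 6584 CPM in thymus, 5162 and 6987 in spleen and 6433 and 7438 in tumor. Markers of NK cells, which also express Nkg7, summed to 8.95 and 20.8 CPM in thymus, 20.6 and 49.3 in spleen and 86.3 and 180 in tumor, higher under the cKO label in every tissue as Nkg7 was. CD8 T cells share part of that list, so these sums are not a measure of NK cells. Klre1 led the list except in the tumor library labelled Pdcd1 cKO, where Fcer1g reached 90.0 CPM, and Ncr1 was at 0 in the 3 Pdcd1fl/fl libraries. In tumor the sums came mostly from Klre1, Tyrobp and Fcer1g, while Klrb1c had 2 and 3 UMIs and Ncr1 had 0 and 4. Melanoma markers, all 6 of them read, summed to 251 and 171 CPM in tumor, led by Dct and Pmel. Macrophage markers, 7 and 8 of 8 read, summed to 321 and 356 CPM there, with Csf1r at 0 under the fl/fl label. Cst3 alone gave 296 and 290 CPM of these sums. It also stood at 123 and 83.6 CPM in thymus and 76.8 and 107 in spleen, where C1qa had 0 UMIs. The sums are thus not a measure of macrophage RNA alone. B-cell markers summed to 168 and 665 CPM in spleen, where Igkc alone gave 475 CPM under the cKO label. Before capture the study had selected CD8 cells, by an isolation kit from thymus and spleen and by CD8 microbeads from tumor. The part in the label ratios of other cell types that passed this selection was not tested.

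Cells were next split by markers of maturity, which in thymus separates immature thymocytes (Dntt) from CD8 cells with Ccl5, a chemokine of memory-like and effector CD8 cells, and from CD8 cells with Ccr7 and no Ccl5. Nkg7 stood at 153 and 192 CPM in the 736 and 1453 Dntt cells, 862 and 881 in the 115 and 517 Ccl5 cells and 737 and 404 in the 83 and 356 Ccr7 cells. The level was thus higher in mature CD8 cells, while the more numerous Dntt cells held 777 of the 1593 and 2494 of the 6214 thymic Nkg7 UMIs. At 1000 UMIs, 15.4% and 19.5% of Dntt cells (median depth 5364 and 6159 UMIs) held Nkg7, against 57.4% and 49.9% of Ccl5 cells (3406 and 5031). The label ratio was 0.32 (0.21 to 0.44) in Dntt cells, 0.03 (-0.12 to 0.19) in Ccl5 cells and -0.87 (-1.08 to -0.65) in Ccr7 cells. These classes were called at unequal depth. Called from cells thinned to 1000 UMIs, Ccl5 cells numbered 38 and 219 and their label ratio was 0.32 (0.08 to 0.57), while Ccr7 cells stayed at -0.78 (-1.04 to -0.51) and Dntt cells were at 0.19 (0.01 to 0.38). The label difference in thymic Ccl5 cells thus depended on how they were called, and Nkg7 was lower under the cKO label in Ccr7 cells either way.

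Other members divided over the same thymic cells. The log2 ratio of Ccl5 cells over Dntt cells was 2.72 and 2.07 for Ctsw, 1.01 and 0.43 for Srgn, 2.56 and 1.99 for Serpinb9 and 2.08 and 1.08 for Serpinb6b. For Lamp1, Unc13d and Rab27a every interval held 0, with ratios of -0.25 and -0.26, -0.64 and -0.04, and -0.24 and -0.17. Stx11 was at 1.45 (-4.17 to 4.79), from 1 and 4 UMIs, and 1.49 (0.50 to 2.45). Ctsw, Srgn and both serpins thus had higher levels in Ccl5 cells than in Dntt cells, as Nkg7 did, and under the cKO label so had Stx11.

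In spleen, Nkg7 stood at 1326 and 1859 CPM in the 746 and 3750 CD8 cells with Ccl5 and at 969 and 905 in the 40 and 40 with Ccr7 and no Ccl5. The label ratio was 0.49 in the former and -0.10 (-0.64 to 0.44) in the latter. Nkg7 was also read outside T cells in spleen. Under the cKO label 67 barcodes with B-cell markers held it at 1105 CPM, and 65.7% of them (median depth 1342 UMIs) carried it at 1000 UMIs, against 75.1% of T cells (1619). The part of free RNA and of doublets in this share was not tested, and splenic cells are little separated by a Nkg7 UMI.

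In tumor, Nkg7 stood at 1671 and 2684 CPM in the 232 and 443 CD8 cells with Ccl5, a label ratio of 0.68, and at 985 in the 31 Ccr7 cells without Ccl5 of the fl/fl library. Serpinb9 separated these fl/fl classes most, with a log2 of 3.03 (1.79 to 4.66) against 0.76 for Nkg7, 0.76 for Ctsw and 1.20 for Serpinb6b. Cells with a UMI of Mki67, a proliferation marker, numbered 63 and 63, or 21.9% and 13.4%. Over the remaining cells they differed by -0.02 and 0.05 in Nkg7. Under the fl/fl label they were higher in Rab27a, at 0.98 (0.27 to 1.68), in Unc13d, at 0.87 (0.16 to 1.57), and in Serpinb9, at 0.50 (0.20 to 0.80). Under the cKO label Rab27a was at 0.53 (-0.18 to 1.19) and Serpinb9 at 0.34 (-0.07 to 0.73), of the same sign but with intervals that held 0. Unc13d there was at -0.78 (-1.69 to 0.02), a value that hung on 1 cell without Mki67, which held 66 of the 136 UMIs on that side. Under that label Serpinb6b was higher in Mki67 cells, at 0.34 (0.05 to 0.63), and Ctsw lower, at -0.40 (-0.66 to -0.14).

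Tumor barcodes called as other cells give the level of each gene outside T cells. Melanoma barcodes, 141 and 58 with median depth of 31932 and 35962 UMIs, held Nkg7 at 25.6 and 95.4 CPM, and 3.55% and 10.3% of them carried it at 1000 UMIs. T cells, at 69.8% and 88.9% with median depth of 11034 and 9111, stood far above that. Serpinb9 stood at 6.83 and 12.3 CPM in melanoma barcodes and Serpinb6b at 3.42 and 7.44, well below T cells. Lamp1 and Rab27a ran the other way, at 185 and 150 CPM and 65.1 and 59.1 CPM in melanoma barcodes, log2 ratios over T cells of 2.89 and 2.90, and 1.76 and 1.40. In the 26 and 32 macrophage barcodes Lamp1 reached 816 and 653 CPM and Srgn 852 and 2687, both above T cells. Nkg7 stood at 88.4 and 348 CPM in macrophage barcodes, and Serpinb9 at 16.1 and 60.9. Nkg7 and Serpinb6b were thus highest in T cells in both tumors, while Lamp1 was higher in melanoma and macrophage barcodes.

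**Figure D2:**
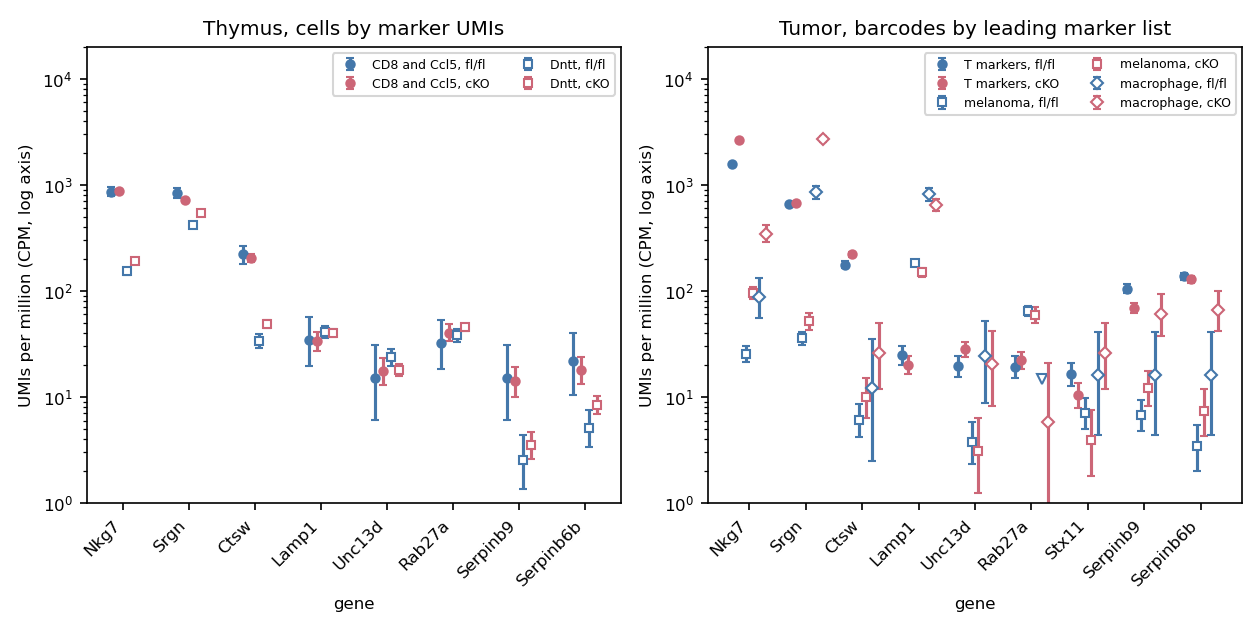
Levels of 8 genes in thymic cell classes and of the 9 genes in tumor barcodes by leading marker list, with 95% intervals for counting error. Filled marks show T cells or CD8 cells with Ccl5, and an open triangle marks the upper bound where no UMI was read.

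Co-detection was read in cells thinned to 1000 UMIs each, so that depth did not differ. Nkg7 was present in 247 of 1063 and 711 of 2628 cells in thymus, 909 of 1453 and 3638 of 4843 in spleen and 201 of 288 and 418 of 470 in tumor. In thymus Ctsw was found in 17.0% of Nkg7 cells against 5.15% of the others under the fl/fl label, a difference of 11.9 points (7.06 to 17.3), and in 17.3% against 8.19% under the cKO label, 9.11 points (6.10 to 12.3). Among thymic CD8 cells without Dntt the differences were 8.23 (-2.48 to 19.0) and 5.46 (0.472 to 10.6) points. The Ctsw differences were smaller once immature cells were set aside.

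Srgn was found in 46.2% of thymic Nkg7 cells against 40.6% of the others under the fl/fl label, 5.59 points (-1.63 to 12.9), and in 52.5% against 42.7% under the cKO label, 9.74 points (5.37 to 14.1). Among thymic CD8 cells without Dntt the Srgn differences were -4.07 and 3.07 points. Serpinb9 and Serpinb6b were rare. Under the cKO label they were found in 1.27% against 0.261% and 1.97% against 0.522% of thymic cells, and under the fl/fl label they differed by -0.613 (-1.42 to 0.926) and 1.41 (-0.175 to 4.08) points. In spleen under the cKO label Ctsw differed by 3.42 points (0.660 to 6.07) and Serpinb6b by 1.04 points (0.208 to 1.72), while under the fl/fl label Ctsw differed by -0.925 points (-5.13 to 3.12). That last value was not stable, at 1.42 averaged over all draws, 6.35 (1.47 to 10.9) without thinning and 21.5 (1.17 to 34.9) in the few cells with 2000 UMIs. Serpinb9 there was less frequent with Nkg7, by -1.18 points (-2.53 to -0.260), a sign that turned without thinning, to 0.126. In tumor only Srgn under the cKO label had an interval clear of 0, at 16.3 points (1.06 to 29.9), and this was -13.8 at 2000 UMIs and 0.106 averaged over all draws.

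Counted together, partners higher in Nkg7 cells numbered 3 and 8 of 8 in thymus, 4 and 5 in spleen and 4 and 3 in tumor. Genes outside the group that were read in similar numbers of cells would give 3.30 and 3.07 of 8 in thymus, 4.02 and 4.02 in spleen and 4.60 and 4.45 in tumor. These counts come from 1 draw. Averaged over all draws the count was 6 in the fl/fl thymus, against 3.37 from like genes, and 8 in the cKO spleen, against 3.93. Without thinning it was also 6 and 8, against 3.59 and 6.61. The fl/fl spleen, fl/fl tumor and cKO tumor counts over all draws were 3, 5 and 4, against 3.97, 5.45 and 3.96. Without thinning the fl/fl spleen and fl/fl tumor counts were 6 and 6, against 5.57 and 6.53. The cKO thymus count was 8 over all draws, against 2.56, 7 without thinning, against 2.68, and 6 at 2000 UMIs. Among fl/fl thymic CD8 cells without Dntt, Srgn, Lamp1, Serpinb9 and Rab27a were lower with Nkg7, at -4.07, -2.18, -0.79 and -0.40 points. Ctsw, Serpinb6b and Unc13d were higher there, at 8.23, 3.57 and 2.88 points. Among such cells of the cKO thymus only Lamp1 was lower, at -0.34 points. A cell held on average 0.761 partners with Nkg7 against 0.589 without it in the fl/fl thymus and 0.851 against 0.616 in the cKO thymus. In spleen these means were 0.889 against 0.890 and 0.968 against 0.926, and in tumor 0.891 against 0.862 and 0.935 against 0.962. The mean was thus higher in Nkg7 cells in both thymus libraries, where few cells carried Nkg7, and close to equal in spleen and tumor, where most did. The thymic means pool immature and mature cells.

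**Figure D3:**
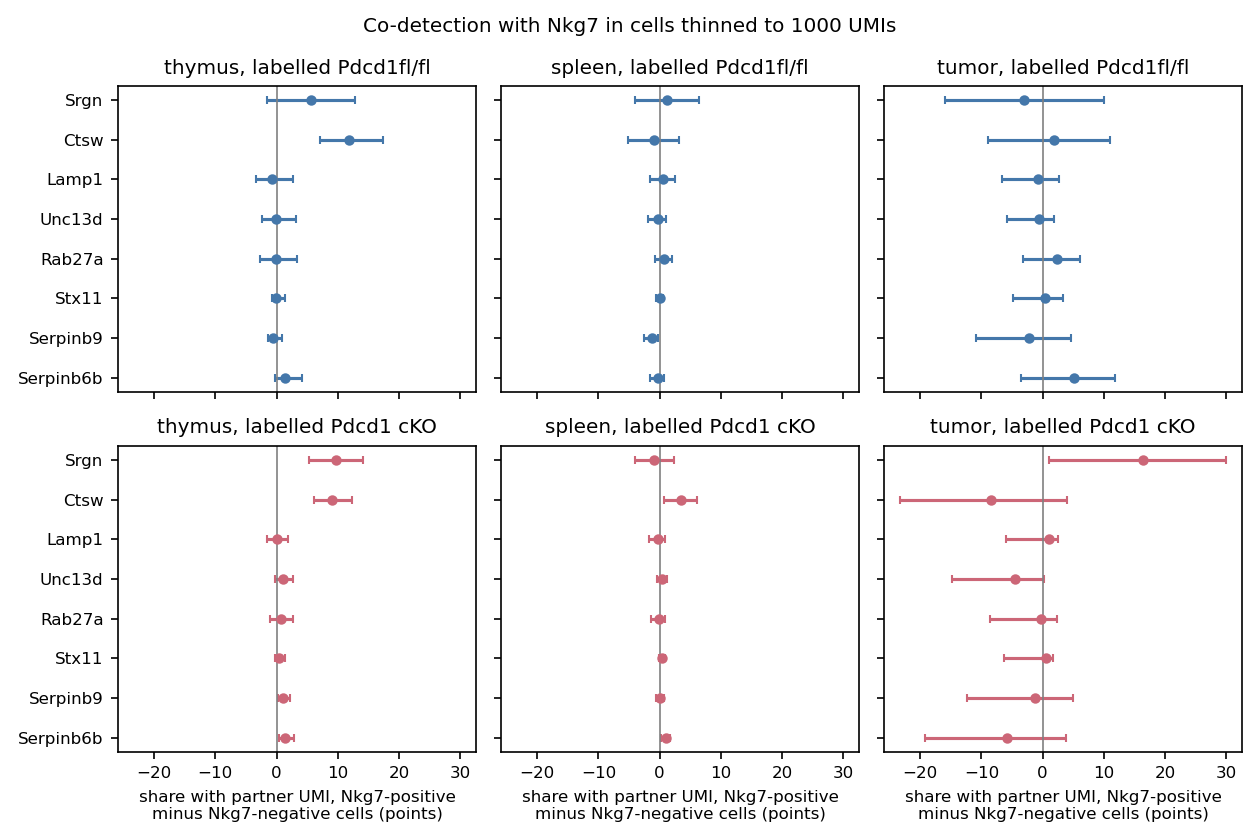
Difference in the share of cells with each partner gene between cells with and without a Nkg7 UMI, each cell thinned to 1000 UMIs. Intervals cover counting error only.

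Granule contents followed Nkg7 unevenly. In thymus under the cKO label Gzmb was found in 4.78% of Nkg7 cells against 0.678% of the others, Gzmk in 4.64% against 0.782% and Prf1 in 3.38% against 0.835%, with intervals of the difference clear of 0. Under the fl/fl label these genes were rarer and differed by 1.09 (-0.02 to 3.39), 0.160 (-0.590 to 2.00) and 0.442 (-0.558 to 2.55) points. Gzma went the other way, in 17.0% against 35.2% under the fl/fl label and 8.86% against 15.0% under the cKO label. In spleen Gzmm differed by 4.97 (1.88 to 7.89) and 4.82 (2.91 to 6.59) points. In tumor Gzmb differed by 9.54 (-2.81 to 20.7) and 9.08 (-5.80 to 24.1) points, and both intervals held 0.

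Among all genes found in at least 5% of thinned cells, those most tied to Nkg7 by cell were mostly not granule genes. Ccl5 was first in the cKO thymus (phi 0.31) and the fl/fl spleen (0.117) and ranked 3 in the fl/fl thymus (0.26), and S100a6 was first in the cKO spleen (0.0951). In tumor the leading genes were Lgals1 (0.242) under the fl/fl label and mt-Co3 (0.202) under the cKO label. Ctsw ranked 19 of 2837 and 32 of 2681 genes in thymus, 1319 of 2015 and 90 of 2394 in spleen and 704 of 1543 and 1505 of 1615 in tumor. Over the 6 libraries, the level of Cnn2 (r 0.995) and Il2rb (0.995) followed that of Nkg7 most closely among 7090 genes, and Ctsw ranked 43 (0.954). These genes were named after their values were seen, and a correlation over 6 libraries that share tissue and label is a description only.

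Wider lists of the pathway were read between labels for genes with at least 20 UMIs. Among all such genes the shares at least 2-fold higher and lower under the cKO label were 8.79% and 5.19% in thymus, 9.35% and 2.6% in spleen and 9.64% and 4.25% in tumor. Of 7 granule-content genes, 4 of 6 read in thymus were at least 2-fold higher under the cKO label (highest Gzmb, 2.72) and 1 was lower (Gzma, -1.27). In spleen 5 of 6 were higher (highest Gzma, 2.71, lowest Gzmm, 0.24), and in tumor 4 of 7 were higher (highest Gzma, 2.28) and 2 lower (lowest Gzmm, -2.11). The median log2 ratio of the list was 1.63, 1.58 and 1.09, above those of the lists that follow. Docking and fusion genes had medians of -0.00, 0.57 and 0.25, with 2 of 11 higher in thymus (Rab27b, 2.06, and Sytl2), 3 of 10 in spleen (highest Sytl2, 1.32) and 0 of 10 in tumor (highest Sytl1, 0.57). Rab27b had 2 and 25 UMIs in thymus (0.05 to 5.18). It passed the filter only through the cKO library, where it was higher, so no conclusion is drawn from it.

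Granule biogenesis genes, 8 in all, had medians of -0.03, 0.49 and -0.09, and 0 moved 2-fold. Lysosome genes, 11 in all, had medians of 0.18, 0.45 and 0.25, and 0 moved 2-fold (highest Tfeb in spleen, 0.98). Genes that build serglycin's sugar chains, 5 in all, had medians of 0.55, 0.69 and 0.70, with 2, 1 and 2 higher (highest Csgalnact1 in tumor, 1.28). The tumor calls were Csgalnact1, with 6 and 20 UMIs (-0.09 to 2.89), and Csgalnact2, with 7 and 22 (-0.08 to 2.67), so both intervals held 0. Both passed the filter only through the cKO library, where they were higher, so no conclusion is drawn from these calls. Chst11 was lower there, at -0.97 (-1.58 to -0.38). Of 5 other clade B serpins only 2, 2 and 3 were read, with medians of 0.20, 0.08 and -0.28 and 1 lower, Serpinb9b in tumor. The spleen median lay between Serpinb6a at 0.57 and Serpinb1a at -0.41. Among these lists granule contents thus had the highest median in every tissue, with the labels as deposited. In a tissue whose labels were exchanged, each ratio would change sign and that median would be the lowest.

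Promoters are shown for Nkg7 and for both serpins, which were higher together in tumor. They are RefSeq sequences of 300 bases on build GRCm38.p6, which differs from the GRCm39 coordinates above, and 7 of the 9 members matched, while Ctsw and Unc13d had no entry. Motifs were searched on both strands, TGTGGT (Runx core), AGGTGTG (T-box core), TGANTCA (AP-1) and GGAAAA (NFAT core), and capitals mark the matches. They occur in 16.8%, 5.84%, 7.81% and 23.4% of 32851 promoters of the same length, and the Runx and T-box letters can overlap. The sequences lie at chr7:43436888-43437187 for Nkg7, chr13:33004291-33004590 for Serpinb9 and chr13:32965011-32965310 for Serpinb6b, all on the plus strand.
Nkg7: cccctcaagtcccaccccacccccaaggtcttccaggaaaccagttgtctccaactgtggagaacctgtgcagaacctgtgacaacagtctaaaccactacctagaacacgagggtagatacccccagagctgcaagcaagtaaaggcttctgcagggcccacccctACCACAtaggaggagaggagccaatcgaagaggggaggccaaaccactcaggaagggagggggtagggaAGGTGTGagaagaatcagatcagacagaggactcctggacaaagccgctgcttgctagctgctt
Serpinb9: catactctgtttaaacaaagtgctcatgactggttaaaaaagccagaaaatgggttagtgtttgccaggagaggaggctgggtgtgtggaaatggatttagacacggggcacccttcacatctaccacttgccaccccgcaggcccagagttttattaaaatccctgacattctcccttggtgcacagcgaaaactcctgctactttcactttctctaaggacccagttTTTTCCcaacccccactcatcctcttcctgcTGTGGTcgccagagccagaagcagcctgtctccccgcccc
Serpinb6b: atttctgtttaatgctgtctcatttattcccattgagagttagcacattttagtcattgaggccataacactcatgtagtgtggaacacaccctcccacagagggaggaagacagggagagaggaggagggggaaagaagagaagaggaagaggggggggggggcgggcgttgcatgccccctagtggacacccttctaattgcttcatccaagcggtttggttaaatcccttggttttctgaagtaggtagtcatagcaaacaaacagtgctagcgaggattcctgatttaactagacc
Nkg7 held 1 Runx and 1 T-box match, apart from each other, Serpinb9 held 1 Runx and 1 NFAT match, and Serpinb6b held none. A match describes letters in this window and does not show binding.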

How the data were processed

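The deposited counts are UMIs per gene and barcode that the authors made with the PIPseq pipeline 3.2 on GRCm39 from PIPseq v3 libraries, and the authors analyzed them with Seurat 4.3.0. All 6 libraries were used. Barcodes were kept by the authors' filter, at least 500 genes and 1000 UMIs and at most 20% UMIs of the 13 mitochondrial genes, and then called T cells where the 10 T markers had more UMIs than each of 6 other marker lists. No doublet caller was run and no cell was removed for that reason; an alternative left out the 5% of cells with most UMIs. Levels are pooled UMIs per total UMIs of the cells, with exact Poisson intervals. Ratios have exact conditional binomial intervals, shares Clopper-Pearson intervals, and differences of shares Newcombe intervals built from both, all at 95%. A side at 0 was read at 3 UMIs. With 1 library per group no test was made, and named differences are those of at least 2-fold among genes with at least 100 UMIs (20 for listed genes). Cells were thinned to 1000 UMIs without replacement (seed 1), and classes of cells under 20 were not read. Partner counts were set beside genes read in numbers of cells within 0.25 of each partner's, a comparison added after the values were seen. The genes measured and the lists were chosen with earlier results of these data known. Genes on GRCm39 were placed by GENCODE vM39. Granulocyte markers summed to 0.457 and 18.0 CPM in spleen, erythroid markers to 1.37 and 28.7 in spleen, connective tissue markers to 11.7 and 5.12 in tumor and other T-cell markers, led by Trdc, to 176 and 145 in thymus. The scripts were tested on simulated data. Python 3.11.15, numpy 2.4.6, scipy 1.17.1, pandas 2.3.3 and matplotlib 3.10.9 were used.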

Additional observations from a re-analysis of the deposited data

Results flagged for a closer look

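Some label ratios went one way in one tissue and the other way in another. For Srgn the log2 ratio was 0.30 in thymus and -0.09 in spleen, apart by -0.39, though among thymic cells with CD8 and no Dntt it was -0.14, the sign of spleen. For Unc13d it was -0.36 in thymus and 0.54 in tumor, apart by 0.90, and 1 tumor cell held 66 of the 150 UMIs behind the latter. For Stx11 it was 1.56 in thymus and 2.49 in spleen but -0.65 in tumor, apart by -2.21 and -3.15. The spleen value rests on 2 UMIs in the Pdcd1fl/fl library and was 0.99 with all deposited barcodes. For Serpinb9 it was 0.79 in thymus and -0.60 in tumor, apart by -1.39. It was 0.15 among thymic cells with CD8 and no Dntt, and 0.15 in tumor with all filtered barcodes. With 1 library per label and tissue these differences were not tested.

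A signal also appeared in barcodes outside the comparisons. In the spleen library labelled Pdcd1fl/fl, the 5451 barcodes that the authors' filter leaves out (median 654 UMIs) held Nkg7 at 1083.5 CPM (1050 to 1118), from 4025 UMIs, and 42.2% of them carried a UMI of it. This is near the 1285 CPM of the T cells kept from that library. Whether these barcodes were cells was not tested.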

How the results depend on the processing

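Nkg7 was higher under the cKO label in thymus under each alternative but 1. Among cells with CD8 and no Dntt its log2 ratio was -0.13, with mitochondrial, ribosomal protein and Malat1 UMIs out of the totals 0.56, and in cells thinned to 1000 UMIs 0.25. In spleen it was 0.64 with all deposited barcodes, 0.37 without those UMIs and 0.33 by the median of ratios. In tumor it was 1.45 with all filtered barcodes and 1.46 with all deposited ones, 0.88 without the 5% of cells with most UMIs, 0.63 without mitochondrial, ribosomal protein and Malat1 UMIs, 0.67 by the median of ratios and 0.88 when thinned. The other 15 values of Nkg7 lay within the first interval.

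For the other members the sign turned in 8 of 135 values where the first interval held no 0, and in 12 of 81 where it held 0. The 8 follow. Among thymic cells with CD8 and no Dntt, Srgn was at -0.14, Ctsw at -0.11 and Serpinb6b at -0.11, and Serpinb6b was at -0.043 when thinned. In tumor Unc13d was at -0.15 without the 5% of cells with most UMIs and at -0.21 without the richest cell of each library, an alternative chosen after seeing the data. Serpinb9 in tumor was at 0.15 with all filtered and 0.15 with all deposited barcodes, which hold melanoma and macrophage cells. Of the remaining values, the 12 among them, 32 lay outside the first interval and 176 within it. For Unc13d 1 cell made the difference between 0.54 and -0.21, while thinning gave 1.29. For the others the cause was not tested.

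Where the first interval held no 0, co-detection turned in 2 of 35 values, for Serpinb9 in the fl/fl spleen without thinning (0.126 points) and for Srgn in the cKO tumor at 2000 UMIs (-13.8 points). Where it held 0, the sign turned in 57 of 149 values. Of all but the first 2, these 57 among them, 41 lay outside the first interval and 141 within it. Partners higher in Nkg7 cells numbered 6 in the fl/fl thymus averaged over all draws, 6 at 2000 UMIs and 6 without thinning, and 8 in the cKO spleen over all draws and 8 without thinning. Among fl/fl thymic CD8 cells without Dntt, Srgn, Lamp1, Serpinb9 and Rab27a were lower in Nkg7 cells, as given above. In the cKO tumor no value without thinning was run, since every cell held Nkg7. At 2000 UMIs 181 of 1453 and 1375 of 4843 splenic cells had enough UMIs. Members at least 2-fold higher between labels numbered 1 of 9 in thymus (8.79% of all genes) and 2 of 9 in spleen (9.35%) with genes of at least 20 UMIs, and 0 in spleen by the median of ratios with genes of at least 100 UMIs (1 with 20). The thymus member was Stx11, with 6 and 53 UMIs. In spleen they were Serpinb6b and Stx11, the latter with 2 and 45 UMIs. Splenic Stx11 passed the filter only through the cKO library, where it was higher, so no conclusion is drawn from that count. Nkg7 levels by cell class held in 8 and moved in 10 values when classes came from thinned cells. The cause of these was not tested. Within a tissue each label had 1 library, and no result comes from a test. A fit that takes the 3 tissues as pairs was not run.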

Other observations

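Cd63, another membrane protein of lysosomes and granules, named after its values were seen, stood at 0.785 and 0.890 CPM in thymus, 2.29 and 3.43 in spleen and 62.7 and 52.3 in tumor. Like Serpinb9 and Serpinb6b it was higher in both tumor libraries than in the other tissues. The part of melanoma and macrophage RNA in its tumor level was not tested.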
